A study of Mus musculus and synthetic construct with 21 samples.

Results

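The ATF3 motif elements are 156 designed DNA oligos, out of 10038 in 3 reporter pools, that were built around a motif named atf3. They fall into 4 kinds by their names: 21 elements in which a native ATF3 motif was altered, 13 control alterations that carry the ATF3 name, 95 elements in which an ATF3 motif was inserted into a slot of another element, and 27 elements that carry an array of ATF3 motifs only. The motif was selected on activity values of these same pools (lower activity where the native motif was altered, little gain where it was inserted), so the values below describe these libraries, and no test was run on them. All members had more than the minimum of 50 plasmid reads.

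The elements were transfected as plasmid pools into 3T3-L1 cells, a mouse pre-adipocyte line that becomes adipocytes under hormone induction. In this massively parallel reporter assay an element drives a barcoded transcript, and its RNA barcode reads are divided by its barcode reads in the transfected plasmid pool. The induction medium held dexamethasone (a glucocorticoid, at 1 µM), insulin (1.7 µM) and the phosphodiesterase inhibitor IBMX (0.5 mM), and RNA was taken 16 h after transfection. Each pool had 1 RNA and 1 plasmid library, and the groups are sets of elements read from the same cells: altered elements against the unaltered (wt) element of their site in pool 5, inserted elements against the wt element and the other inserts of the slot in pool 6, and arrays against their background in pool 7.

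ATF3 is a stress-inducible transcription factor of the bZIP (basic leucine zipper) family, which binds DNA as homodimers or as heterodimers with partners such as the JUN proteins. Its motif overlaps in sequence with those of the AP-1 factors (FOS, FRA1 and JUN), of JDP2 and ATF4, and more loosely of BACH1, a bZIP repressor that pairs with small MAF proteins. The elements themselves come from sites of PPARγ, the nuclear receptor that drives fat cell differentiation as a dimer with RXR on a DR1 element, a direct repeat of AGGTCA with 1 base between its copies. A motif name therefore stands for a class of sequences that several factors can bind, and the assay reads the element, not the factor.

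The element names give a 16-base PPAR sequence with its mm9 coordinates and strand for each site. Those of the sites on which the results below turn are shown here, the first 6 from the alterations, the next 5 from the insertions and the last 3 from the array backgrounds; capitals mark the 13 bases aligned to the DR1 repeat. The letters of the ATF3 motifs, which the names give only by position, were not used here, and neither was an mm9 gene annotation.
Site 322 (chr7:135093083-135093098, plus strand): tgtGGGTAAAAGTGCA
Site 519 (chr14:65999480-65999495, minus strand): tccAGGACACAGGTCA
Site 267 (chr16:17233634-17233649, plus strand): tgtGGGTCAGGGGTGA
Site 319 (chr16:85423281-85423296, minus strand): aatGTGTCAGAGGTGA
Site 680 (chr11:101163626-101163641, minus strand): tctGGAGCAGGGGTCC
Site 377 (chr5:30498798-30498813, plus strand): gctGGGCCAAGGGTAA
Site 138 (chr9:31069961-31069976, minus strand): attGGGGAGAAGGGCA
Site 142 (chr3:30881176-30881191, plus strand): tctGGGCAAAAGGGTA
Site 223 (chr8:129376258-129376273, minus strand): cagAGGCCAAAGGGCA
Site 699 (chr17:86692767-86692782, minus strand): agtAGGACAGAGGTTA
Site 129 (chr5:51987229-51987244, minus strand): agtAGGGGAAAGAGTA
Background chromosome 9 (chr9:66727486-66727501, plus strand): agtGGGGCAGAGGGCA
Background chromosome 13 (chr13:46069371-46069386, plus strand): tgaAGGTCAGAGTTTA
Background chromosome 15 (chr15:67824069-67824084, minus strand): agtAGGACAGGGGTTA
None of these 14 sequences holds the full repeat. The 20 sites with an altered ATF3 motif had a median of 3 mismatches to it (range 1 to 5), and the other 225 sites of pool 5 also had a median of 3 (range 1 to 6).

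The pools held 15729684 RNA and 17826643 plasmid reads (pool 5), 14198899 and 19193436 (pool 6), and 9806531 and 10179019 (pool 7), with medians of 4972, 5447 and 3223 plasmid reads per element. Activity is the log2 ratio of an element's RNA reads to its plasmid reads, each with 1 added and as a share of its library, so a difference of 1 is a 2-fold difference. There was no replicate library. The wt elements of 11 sites were read in both pool 5 and pool 6: after removal of the mean shift of 0.40 between the pools (pool 6 minus pool 5), the SD of the difference was 0.31, or 0.22 for 1 element, with the widest gap at site 223 (0.70). Pairs of ATF3 inserts given the same coordinates under different slot names differed by a median of 0.087 and at most 0.64 over 14 pairs; over all names, 546 such pairs gave an SD of 0.28 for 1 element and a widest gap of 3.03. Counting error was smaller, with a median SE of 0.041 for a pool 5 difference (highest 0.32). SDs below are over elements, not over cultures.

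Alteration of a native ATF3 motif went with lower activity than the wt element at each of the 21 instances. Lower than wt were also 1372 of all 1605 named alterations of pool 5 and 545 of all 838 control alterations. The elements with an altered ATF3 motif averaged an activity of -0.82 ± 1.06 (SD, n = 21 elements), against 0.63 ± 1.33 for the wt elements (n = 20 sites). The difference, altered minus wt, averaged -1.46 ± 0.88 on the log2 scale, with a median of -1.12 and a range of -3.58 to -0.04. It was -1 or lower, at least a 2-fold loss, at 13 of the 21, where 36.6% of all 1605 named alterations of pool 5 passed the same cut; since the motif was picked for this contrast, nothing is read from that gap. None of the 21 was 1 or more above its wt element (0.997% of all named alterations were). At 0.5 below wt there were 20 of the 21 (59.1% of all), and at 1.5 below there were 7 (19.6%). Over all 1605 named alterations the mean difference was -0.82 ± 0.88.

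The 13 control alterations with the ATF3 name averaged -0.22 ± 0.50 relative to wt (range -1.05 to 0.62), with 8 below and 5 above their wt element. Only the control at site 273 was lower by 1 or more, and over all 838 control alterations 17.8% were. The names do not say which bases a control alters. Nearly all sit at other sites, whose wt elements were less active (-0.35 ± 0.80, n = 13 sites) than those with an altered motif (0.63 ± 1.33). The control at site 750 is 1 physical element with the ERR1 control of that site. Only site 220 (chr5:34637572-34637587) had both an altered ATF3 motif and an ATF3 control. There the altered element had 1227 RNA and 3567 plasmid reads and the control 1402 and 3461, against 5686 and 8114 for wt. The altered element thus stood at -1.03 from wt and the control at -0.79, a gap of -0.24 (altered minus control) that is about the error of 1 element.

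Site 322 showed the widest loss. Its altered element, at position 93 of the element, had 2897 RNA reads on 3604 plasmid reads, against 127628 RNA reads on 13303 plasmid reads for the wt element, the most active of the 20 sites. Activity was -0.13 for the altered element and 3.44 for wt, a difference of -3.58 or 11.9-fold. Alterations of other names at that place were low too: those for NF1 at position 91 (the nuclear factor I family), E4BP4 at 92 (a bZIP repressor) and VBP at 93 (a PAR bZIP activator) lay within 2 bases of it and had differences of -3.81, -3.57 and -2.35. Of the distant alterations, NR1 at position 5 stood at -0.57 and AP-2 at position 33 at -1.88. The 5 distinct controls of the site lay between -0.49 and -0.26. The 4 names around position 93 thus shared the low values, and AP-2, 60 bases before it, was also well below the controls.

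Site 519 came next. Its ATF3 alteration at position 42 had 1752 RNA and 4006 plasmid reads, against 68948 and 18826 for wt, a difference of -3.07 or 8.37-fold. Alterations of JDP2 at 41 and JUN at 45, both bZIP names, gave -2.92 and -2.65. Elsewhere in the element AP-2 at 19 gave -2.31, HLF at 95 gave -1.10 and FRA1 at 115 gave -0.03, and the AP-1 control of the site gave -0.12. The 3 bZIP alterations around position 42 were the lowest of the site, and the loss was not limited to that place.

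At site 267 the bZIP names differed among themselves. The ATF3 alteration at position 89 had 2484 RNA and 3620 plasmid reads, against 41921 and 10539 for wt, a difference of -2.53 or 5.80-fold. JDP2 at 88 stood at -1.18, ATF4 at 90, the effector of the integrated stress response, at -1.22, and JUN at 92 at -0.68. ZFP410 at 109, not a bZIP name, was lower than these 3 at -1.74, and the only distinct control of the site had -0.05. The ATF3 alteration was lower than each other named alteration of the site. Alterations under different names need not change the same letters.

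Site 680 carried 2 ATF3 instances in 1 element and separated them. The alteration at position 97 left 2218 RNA reads on 6916 plasmid reads, and that at position 80 left 8961 on 5519, against 35164 on 21110 for wt. The differences from wt were -2.38 (5.19-fold) at position 97 and -0.04 (1.03-fold) at position 80, so the instances of 1 element, read in the same libraries, gave the fifth lowest and the highest value of the 21. Neighbours followed position again: JDP2 at 95 gave -2.61, ATF4 at 97 gave -2.13 and JUN at 99 gave -2.15, while AP-1 at 79 gave -0.10 and ATF4 at 79 gave -0.30. The LXR and RXR alteration at 92, a single element under both nuclear receptor names, was also low at -2.17.

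At sites 319 and 377 the comparison with wt and that with controls went apart, and there the values do not show a need for the ATF3 motif. Whether the wt and control elements of these sites are what their names say was not tested, and site 319 is among the 13 losses counted above. Without both sites the mean difference from wt was -1.45 ± 0.88 (n = 19), and 12 of 19 were at -1 or lower. The altered element of site 319 had 5261 RNA and 8832 plasmid reads, against 77121 and 23553 for wt, a difference of -2.46. Its 4 controls were as low, between -2.78 and -2.62, and the MYB alteration at position 52 stood at -1.93. The wt element of site 319 was thus above each of its 8 altered or control elements, and relative to the control mean the ATF3 alteration was 0.23 higher. At site 377 the altered element had 11986 RNA and 5930 plasmid reads, against 68333 and 19213 for wt (difference -0.82). The 3 controls there lay between -3.10 and -2.91, so the ATF3 alteration stood 2.22 above the control mean. Other alterations of site 377 spread widely: PPAR gave -3.26 at position 4, -0.93 at 91 and -0.26 at 132, and LXR at 84 gave 1.02. Low controls were not limited to these 2 sites. At site 719 the only control had -0.77, against -0.67 for ATF3, and at site 468 the controls ran from -2.16 to -0.28, against -1.48. Controls ran from -1.34 to 0.28 at site 638, against -0.94 for ATF3, and from -1.07 to -0.13 at site 486, against -1.58. Those of site 388 ran from -0.86 to -0.51, against -0.94. Of the 18 instances with controls, 15 were below the mean of their controls.

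The other instances spread around the 2-fold line. Site 660 had -1.86, site 486 had -1.58, site 468 had -1.48 and site 343 had -1.30, the last on 23 RNA and 149 plasmid reads, a 95% counting interval on its activity of -3.22 to -1.88. Sites 137, 98 and 292 had -1.17, -1.12 and -1.11. Within 0.1 of the line lay site 220 (-1.03) inside and site 393 (-0.98), site 17 (-0.94), site 388 (-0.94) and site 638 (-0.94) outside. At site 17, ATF3 at position 49 left 15726 RNA reads on 5319 plasmid reads, against 93502 on 16469 for wt, whereas the PPAR alteration at position 8 left a difference of -3.93. Sites 640 and 719 closed the list at -0.79 and -0.67, site 719 on only 89 RNA and 331 plasmid reads. The site with the weakest loss, position 80 of site 680, is described above.

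Alterations of other names close to the ATF3 instance gave values like those of ATF3, and distant ones mostly did not. For 18 instances at least 1 alteration of another name began within 8 bases, 56 distinct elements in all, and these averaged -1.45 ± 0.83 relative to wt as means per instance. The ATF3 alteration minus that mean was -0.06 ± 0.54, lower in 10 and higher in 8. For the 10 instances with an AP-1, FOS, FRA1, JUN, JDP2, BACH1 or ATF4 name that close, the ATF3 alteration minus their mean was 0.00 ± 0.63, lower in 5 and higher in 5. With C/EBP, HLF, E4BP4 and VBP, also bZIP names, counted as well there were 15 such instances, and the difference was -0.06 ± 0.53, lower in 9 and higher in 6. Alterations 25 or more bases away averaged -0.62 ± 0.78 over 20 instances, and the ATF3 alteration minus these was -0.86 ± 1.12, lower in 17 of 20. Sites 17, 377 and 719 went the other way: the distant alterations averaged -2.43, -2.16 and -0.96 there, lower than the ATF3 alterations.

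Instances with any of the 11 bZIP names near averaged -1.59 ± 1.00 relative to wt (n = 15) and those with none -1.15 ± 0.35 (n = 6). With the 7 AP-1 and ATF type names alone the order turned round, at -1.39 ± 0.95 (n = 10) and -1.53 ± 0.85 (n = 11). Against the controls of the same site under any name, the ATF3 alterations averaged -1.05 ± 1.35 (n = 18 instances), 15 lower and 3 higher. Of those 18, 9 were lower by 1 or more, against 23.5% of 1482 named alterations set against their own controls. Against the median of the other named alterations of the site the difference was -0.52 ± 0.88, lower in 14 of 21, and the ATF3 alteration was the lowest of its site in 8. Sites held from 3 (site 319) to 20 (site 377) other distinct alterations, and how often other names were lowest was not counted. Since the motif was picked for low values in these libraries, nothing is read from these counts. Altered PPAR, PPARγ or RXR motifs of the same sites averaged -0.80 ± 0.74 (n = 11), and the ATF3 alteration minus these was -0.51 ± 1.12, lower in 7 of 11.

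By name, ATF3 ranked 3 of 40 from the lowest in the mean difference from wt. JDP2, which dimerises with JUN and ATF proteins, had -1.75 (8 instances, all 8 at -1 or lower), and slug, a zinc finger repressor, had -1.52 from a single element. FOS had -1.33 (17 instances, 12 at -1 or lower), JUN -1.30 (35, 22) and BACH1 -1.29 (22, 13). FRA1 had -1.04 (33, 15), ATF4 -1.01 (22, 10) and AP-1 -0.89 (43, 16). PPAR, the motif of the receptor under study, had -1.0 (102, 44). The names share many positions, so these lists are not independent of each other.

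The loss also went with the activity there was to lose. Instances in wt elements with an activity of 1 or more averaged -2.23 ± 1.12 (n = 6), and those in weaker elements -1.16 ± 0.54 (n = 15); the wt value enters both numbers, so this is a description. In the separate libraries of pool 1, which read the native form of all 245 sites, the 20 ATF3 sites averaged an activity of 2.38 ± 1.05, against 1.39 ± 0.78 for the other 225. The alteration of the PPAR sequence in that pool averaged -1.49 ± 1.00 from native at the ATF3 sites and -1.40 ± 0.73 at the others. The sites with an altered ATF3 motif thus had a higher mean native activity in libraries outside the selection of the motif, and a PPAR alteration difference within the spread of the rest; neither was tested. None of the other 225 sites was below 0.47 in pool 1, so pool 5 holds only sites that were active there.

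In pool 6 an ATF3 motif was inserted into 95 slots of 15 sites, each slot being the place of a native motif into which 39 motif names were put in turn. No slot held a native ATF3 motif, and none of the 20 sites of the alterations is among the 15, so removal and insertion were never read in the same element. The inserted elements averaged -0.44 ± 1.01 relative to the wt element of their site, with a median of -0.28 and a range of -2.91 to 2.03. They were higher by 1 or more in 5 slots of 95, where 9.75% of all 3703 inserts were, and lower by 1 or more in 25, where 20.3% were. At 0.5 there were 12 higher and 38 lower (20.8% and 30.7% of all inserts), and at 1.5 there were 1 higher and 16 lower (3.89% and 14.7%). All inserts together averaged -0.26 ± 1.09.

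Most of that range belonged to the slot. The difference of the ATF3 insert from wt followed the difference of the slot mean, the average over all names put there, with r = 0.94 over 95 slots; slots of a site share libraries, wt element and sequence, and the ATF3 insert is 1 of the values in each mean. Relative to the slot mean the ATF3 insert averaged -0.18 ± 0.36, below it in 76 slots and above it in 19. Of all 3703 inserts, 2051 were below their slot mean. Against the slot median the ATF3 insert averaged -0.10, and against a slot mean without AP-1 family and BACH1 names -0.068. It was 1 or more above in 1 slot (7.89% of all inserts) and 1 or more below in 0 (4.89%). As means of the 15 sites it stood at -0.21 ± 0.15, below 0 in 12. The ATF3 name ranked 25 of 39 by this measure, and its median rank in a slot was 24.

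Of the other bZIP motifs in the same slots, each gave a higher mean than ATF3 except C/EBP. BACH1, ranked 1, was higher than ATF3 in 95 of 95 slots, and the ATF3 minus BACH1 difference was -1.23 ± 0.66. ATF3 minus AP-1 was -1.07 ± 0.72 (ATF3 lower in 87 of 95), ATF3 minus FRA1 -0.80 ± 0.85 (81 of 95) and ATF3 minus JUN -0.74 ± 0.67 (85 of 95). The names closest to ATF3 by family were also above it: ATF3 minus JDP2 was -0.58 ± 0.47 (86 of 95), ATF3 minus ATF4 -0.53 ± 0.65 (74 of 95) and ATF3 minus FOS -0.49 ± 0.77 (75 of 94). HLF, VBP and E4BP4, bZIP factors of the PAR type or close to it, were above ATF3 in 82, 75 and 78 of 95 slots, with ATF3 minus each at -0.59 ± 0.70, -0.39 ± 0.50 and -0.37 ± 0.44. ATF3 minus C/EBP was 0.22 ± 0.57, with ATF3 higher in 65 of 95. PPAR, the receptor motif native to these sites, was higher than ATF3 in 90 of 95 (difference -0.96 ± 0.60). These are means over slots that share libraries and sites. The 0.31 SD of the wt difference between pools is for single elements, so the error of these means was not measured.

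In the 11 slots at sites 129, 142 and 223 where an AP-1 family or BACH1 motif was native, the ATF3 insert was low. The ATF3 insert averaged -1.51 ± 0.70 from wt and was lower by 1 or more in 9, where 52.6% of all 428 inserts in these slots were. The slot's own motif name put back averaged 0.23 ± 0.84. In the same slots BACH1 had 0.50 ± 0.75, AP-1 0.35 ± 0.51, JUN -0.06 ± 0.68, ATF4 -0.31 ± 0.56 and JDP2 -0.59 ± 0.77. The mean of all names was -1.13 ± 0.68, and C/EBP, a bZIP family with another recognition sequence, had -2.15 ± 0.85. The ATF3 insert thus lay below the average over all names and further below the AP-1 names. Of these 11 slots, 10 are at sites 142 and 223 and overlap within each site, so these elements share most of their sequence.

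The fos slot of site 142 (positions 30 to 37) is an example. With ATF3 it had 5509 RNA and 11166 plasmid reads, against 78455 and 29992 for wt, a difference of -2.41. In the same slot FOS itself had -0.31, AP-1 -0.12, BACH1 -0.04, FRA1 -0.04, ATF4 -0.71, JUN -0.97, JDP2 -1.81 and C/EBP -2.85. Among these names ATF3 thus stood above C/EBP and below the others. HLF, E4BP4 and VBP were not looked up in this slot, which was shown because it is 1 of the 5 lowest with ATF3.

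In the 19 slots of native PPAR, PPARγ or RXR motifs the ATF3 insert averaged -0.85 ± 1.07 from wt, the own name -0.01 ± 1.18 and the slot mean -0.59 ± 0.99. The insert was lower by 1 or more in 7 of the 19, where 30.9% of all 741 inserts in these slots were. The 2 lowest of the 19 were overlapping slots of site 138. With ATF3 its pparg slot (positions 50 to 65) had 2389 RNA and 7890 plasmid reads, against 49758 and 21886 for wt, a difference of -2.91 or 7.51-fold, and its rxr slot (51 to 65) had 3220 and 7769 (-2.46). Also among the 5 lowest slots were couptf (77 to 92) and hnf4 (82 to 100) of site 223, both at -2.58, places of nuclear receptor motifs. These slots of site 223 were low whatever was put there, with slot means of -2.54 and -2.21 from wt. Their own name put back gave -2.50 and -1.84. The pparg and rxr slots of site 138 were low with most names: their slot means were -2.12 and -2.07, ATF4 had -2.94 and -2.67, and BACH1 -1.94 and -2.20. The own name put back gave -1.67 in the pparg slot and -0.12 in the rxr slot, and the PPAR insert was 0.14 and 0.35 above wt.

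In the remaining 65 slots the ATF3 insert was close to wt, at -0.14 ± 0.88, and to the slot mean of -0.01 ± 0.72. BACH1 stood at 1.02 ± 1.02 in those slots, AP-1 at 0.83 ± 1.12, JUN at 0.50 ± 0.98, JDP2 at 0.39 ± 0.88 and ATF4 at 0.34 ± 0.88. Gains of 2-fold with ATF3 were few. The highest was the ctf1 slot of site 699 (positions 86 to 99), with 8583 RNA and 6080 plasmid reads, against 6311 and 18223 for wt, a difference of 2.03 or 4.08-fold. In that slot ATF3 ranked 2 of 39, behind BACH1 at 2.15, and ahead of PPAR at 1.46, JDP2 at 1.41 and ATF4 at 1.40. The overlapping nf1 slot of the same site (84 to 101) gave 0.53 with ATF3, so a shift of few bases went with a gap of over 1 log2 unit.

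The other slots past the line were vbp of site 129 (1.38), couptf of site 240 at 97 to 121 (1.21), err1 of site 129 (1.15) and myb of site 240 (1.01). The vbp slot had 5466 RNA and 5593 plasmid reads with ATF3, against 6325 and 16814 for wt, and ATF4 in the same slot stood at 2.15. Just outside the upper line were the cebp slot (100 to 111) and the rxr slot (112 to 130) of site 240, at 0.99 and 0.97. The ppar slot with the coordinates of that rxr slot gave 0.33, the widest gap among the 14 ATF3 pairs with the same coordinates, so values this close to the line are within the error. Around the lower line were ap1 of site 223 (-1.03), nf1 of site 407 (-1.02), bach1 of site 223 (-0.98) and myc of site 330 (-0.96).

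By site, the strong elements carried the low values. Of the 25 slots lower by 1 or more, 14 were among the 17 of site 223 (wt activity 1.11), 5 among the 6 of site 142 (1.82), 2 among the 3 of site 138 (1.62), 2 at site 508 and 2 at site 407. Of all inserts 752 of 3703 (20.3%) were that low, and without site 223 328 of 3040 (10.8%). Site 223 thus held many of the low inserts of other names too. Shares over all inserts of the other sites were not worked out. Site means ran from -1.99 at site 138 to 0.40 at site 699, whose wt activity was -1.09. The slot means of the same sites moved along, from -1.58 at site 138 to 0.36 at site 699. The wt element of site 223 was also the one that differed most between pools 5 and 6 (higher in pool 6), which touches each of its 17 differences from wt and none of its differences from slot means.

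By their slot-centred values over 95 slots, the names most like ATF3 were JDP2 (r = 0.26), FOXO4, a forkhead factor (0.25), E4BP4 (0.24), ERR3, an orphan nuclear receptor (0.24), and VBP (0.21). BACH1 had 0.20 and ATF4 0.18. These are weak, and the points share libraries and sites.

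In pool 7, arrays of 2, 4 or 6 ATF3 motifs stood in 3 arrangements on 3 genomic backgrounds, 27 elements in all. They averaged 0.27 ± 1.71 above the background element, ranking 7 of the 15 names that had arrays of a single motif. Of the 27, 8 were higher by 1 or more, where 39.3% of all 3216 arrays were, and 4 lower by 1 or more, where 16.8% were. At 0.5 above there were 12 (52.7% of all arrays), and at 1.5 above there were 4 (28%). Set against the mean of all arrays of the same background, copy number and arrangement, they averaged -0.10.

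The chromosome 15 background was read thinly and gave the extremes. Its background element had 1194 RNA and 7444 plasmid reads, against 19901 and 50127 on chromosome 9 and 21377 and 43479 on chromosome 13, and its arrays a median of 1012.5 plasmid reads, against 3994 and 3857. The ATF3 array of 2 copies in arrangement 1 there had 2 RNA reads on 900 plasmid reads, an activity of -8.18 with a 95% counting interval of -11.81 to -6.90. The other arrays of 2 copies there had 1045 RNA reads on 1675 plasmid reads (1.96 above the background element) and 2294 on 1545 (3.21 above). With 4 copies the chromosome 15 arrays had differences of -0.19, 1.40 and 0.37, and with 6 copies 3.30, -1.50 and 1.49. Arrangements of 1 copy number thus spread over several log2 units on this background, and the rest is given without it.

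On chromosomes 9 and 13 the 18 ATF3 arrays averaged 0.15 ± 0.92, rank 8 of 15. Of these, 3 were higher by 1 or more (31.9% of 2158 arrays) and 2 lower by 1 or more (12.7%). With 2 copies they averaged -0.66 ± 0.85, with 4 copies 0.61 ± 0.66 and with 6 copies 0.51 ± 0.70 (n = 6 each). The step between 2 and 4 copies was larger than that between 4 and 6, which was within the spread. Set against the mean of all arrays of the same design, the ATF3 arrays averaged -0.52 ± 0.72, 0.23 ± 0.70 and -0.20 ± 0.62 with 2, 4 and 6 copies.

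On chromosome 9 the arrays of 2 copies had 1703 RNA reads on 4913 plasmid reads, 2047 on 4518 and 1510 on 5478 in arrangements 1 to 3, differences of -0.20, 0.19 and -0.53. Those of 4 copies had 5409 on 7245, 4109 on 6973 and 2194 on 4766 (0.91, 0.57 and 0.21). Those of 6 copies had 6350 on 7814, 3305 on 6570 and 6541 on 6156 (1.03, 0.34 and 1.42). The means -0.18, 0.56 and 0.93 were in the order of copy number on this background, with overlapping values.

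On chromosome 13 the means did not follow copy number. Arrays of 2 copies had 751 RNA reads on 5541 plasmid reads, 853 on 5159 and 2560 on 5279, differences of -1.86, -1.57 and -0.02. Those of 4 copies had 5913 on 3773, 1235 on 3088 and 3294 on 4467 (1.67, -0.30 and 0.58), and those of 6 copies 2439 on 6181, 5170 on 6011 and 2398 on 5742 (-0.32, 0.81 and -0.24). The means were -1.15, 0.65 and 0.08. Arrangement means over both chromosomes were 0.21, 0.01 and 0.24, apart by less than the spread within any arrangement.

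Against the ATF3 means of -0.66, 0.61 and 0.51, AP-1 family arrays of the same designs had means in the order of copy number on these backgrounds. With 2, 4 and 6 copies JUN averaged 0.26, 1.74 and 3.09, FOS -0.24, 1.21 and 3.22, FRA1 -0.17, 1.75 and 2.66, and BACH1 0.53, 2.04 and 2.65 (n = 6 each). PPAR arrays averaged 1.07, 2.21 and 2.32. With 6 copies the 6 ATF3 arrays ran from -0.32 to 1.42, and the lowest of the 6 JUN arrays was 2.76, of the FOS arrays 2.26, of the FRA1 arrays 1.91, of the BACH1 arrays 1.64 and of the PPAR arrays 1.47. The highest ATF3 array was thus within the error of 1 element (0.22) of the lowest BACH1 and PPAR arrays. These 5 names had the 5 highest means of the 15 names on these backgrounds, and the other names were not set beside ATF3 by copy number.

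Arrays that mixed ATF3 with another name were on average lower than arrays of that name alone when it was an AP-1 family or PPAR motif. BACH1, JUN, FOS, FRA1 and PPAR, the partners in question, had the 5 highest means of their own arrays. With each other partner the mixed arrays on chromosomes 9 and 13 were on average higher, from 0.03 for VBP to 1.42 for MYB. By design the split was less clean. Of up to 18 designs a partner, the mixed array was the lower in 11 for MYC, 10 for FOXO4, 9 for LXR, 9 for VBP, and 5 or 6 for the rest. Over 18 designs on chromosomes 9 and 13, the mixed array minus the partner's own array averaged -0.98 for BACH1 (lower in 15 of 18), -0.67 for JUN (15), -0.62 for FOS (13), -0.56 for FRA1 (11) and -0.50 for PPAR (14). Relative to the background element the same mixed arrays averaged 0.77, 1.03, 0.78, 0.85 and 1.37, each above the 0.15 of the ATF3 arrays. The effect of replacing a partner motif with a neutral sequence was not analysed here.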

How the data were processed

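The deposited values of pools 5 to 7 were raw read counts, which per the series' design text the authors summed over all barcodes of an element. Per the submitters' processing notes the genome build was mm9 and Bowtie2 2.1.0 was used. Pool 1, used for native and PPAR-altered activity, was deposited as read counts per barcode, and its activity is a median over barcodes, those under 20 plasmid reads left out. Of 7 pools in the study, 3 hold the ATF3 motif elements.

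Activity was log2 of the RNA over the plasmid share of the library after adding 1 read to each. Elements under 50 plasmid reads were left out. The 101 pool 5 elements with no site in their name (3.00% of RNA and 4.90% of plasmid reads) stayed in library totals and out of comparisons. Elements of identical counts under several names were counted once in shares over all elements. A difference of 1 or more was called, with no test, since each group had 1 library; 95% intervals are exact binomial and cover counting error only. Barcode reads are not independent molecules.

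Members, lists and thresholds were chosen with earlier results of these data known. Values were named by rule: ATF3, its bZIP relatives, the PPAR and RXR names, the 5 lowest and 5 highest elements, those within 0.1 of the threshold, all arrays and the 5 names most like ATF3; the remaining pool 5 instances, the controls and neighbouring alterations of named instances, and names beside ATF3 in named slots were added after their values were seen. A planned control comparison within sites was possible at 1 site only, and the closing section gives its alternatives. The calculation was checked on simulated counts. Tools were Python 3.11.15, pandas 2.3.3, numpy 2.4.6 and scipy 1.17.1.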

Additional observations from a re-analysis of the deposited data

How the results depend on the processing

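No paired analysis was possible because each pool had 1 RNA and 1 plasmid library, and for the same reason no library could be left out. Of 115 recalculated values, 102 stayed within the spread of the main value or within 1.5 times its count. A reversal was counted only for a main difference of 1 or more in size, which held for the -1.46 of altered from wt elements alone. That value was not reversed. Some recalculations left out no element, such as that without slots of native ATF3 motifs, and could not move a value. The 102 is therefore no measure of stability. The array mean against all arrays of the design was among the 102 although its sign changed. The mean difference of altered from wt elements stayed between -1.52 and -1.12, and of inserted elements from the slot mean between -0.21 and -0.068 and from wt between -0.45 and -0.20. The mean difference of arrays from their background element stayed between 0.15 and 0.49, with 16 of the 27 arrays above it and 11 below in the main calculation. Against the mean of all arrays of the design it was -0.10, so the sign depended on the reference. The error of 1 element was 0.22 to 0.28. Against controls the choice of control decided the value, which was -0.24 at the only site with both, -1.05 with all controls of the same site and -1.25 with all ATF3 controls at unmatched sites; a control of the same number could not be used, since controls carry none. With a threshold of 0.5, 20 altered elements were lower than wt (59.1% of all named alterations), and 12 inserted elements were higher and 38 lower (20.8% and 30.7% of all inserts). With a threshold of 1.5 these were 7, 1 and 16 (19.6%, 3.89% and 14.7%), and 4 arrays were higher than background (28% of all arrays). Chosen after seeing the data were the following. Without site 223, 11 of 78 inserted elements were lower than wt by 1 or more (10.8% of all inserts), and 16 of 84 without slots of native AP-1 family or BACH1 motifs (16.1%). Which names counted as bZIP near an altered motif turned round the order of instances with and without such a name. Without the chromosome 15 background, 3 arrays were higher and 2 lower, of 18 (31.9% and 12.7% of all arrays on the other backgrounds). Low plasmid counts limit the chromosome 15 arrays and sites 343 and 719. What causes these shifts was not tested.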
